A study of Mus musculus with 7 samples.

Results

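Hox genes encode homeodomain transcription factors that tell cells where along the body axis they lie. Of the 54532 features in the count table, 39 carried a mouse symbol of the form Hoxa, Hoxb, Hoxc or Hoxd followed by a number, and these 39 were taken as the Hox genes: 11 in the HoxA cluster, 10 in HoxB, 9 in HoxC and 9 in HoxD. The choice went by symbol alone. The libraries came from C3H10T1/2, a mesenchymal cell line established from mouse embryos. OB libraries (n = 4) were from cells held for 3 days in osteoblast induction medium, which added dexamethasone, ascorbic acid at 50 µM and β-glycerophosphate at 10 mM, and control libraries (n = 3) were from untreated cells of the same line. Both groups grew in Modified Eagle's Medium with serum. The comparison asks which part of the Hox code the line expresses and whether early osteoblast induction changes it.

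The genes of a cluster lie in a row and share a direction of transcription. Genes at one end act in anterior tissues and genes at the other end in posterior and distal limb tissues, and genes at the same place in different clusters form a paralog group. Polycomb complexes keep unused Hox genes silent and Trithorax complexes keep used ones active, so that fibroblasts and mesenchymal cells in culture retain the code of the site they came from. Hox proteins bind DNA together with TALE homeodomain cofactors of the Pbx and Meis families.

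The homeobox is the coding stretch shared by all these genes. It is shown for 3 expressed genes spread over the active part of the cluster, Hoxa2, Hoxa5 and Hoxa10, each read 5′ to 3′ from GENCODE M21 transcripts of GRCm38.p6. Capitals mark the codons of the conserved stretch in the third helix, which contacts DNA.
Hoxa2: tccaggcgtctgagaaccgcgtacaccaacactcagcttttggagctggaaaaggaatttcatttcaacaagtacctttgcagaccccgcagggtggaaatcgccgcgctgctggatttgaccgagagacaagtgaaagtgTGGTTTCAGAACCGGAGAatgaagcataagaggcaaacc
Hoxa5: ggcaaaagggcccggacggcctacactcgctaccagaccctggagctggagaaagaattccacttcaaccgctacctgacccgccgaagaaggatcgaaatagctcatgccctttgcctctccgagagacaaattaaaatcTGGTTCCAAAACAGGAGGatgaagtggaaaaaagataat
Hoxa10: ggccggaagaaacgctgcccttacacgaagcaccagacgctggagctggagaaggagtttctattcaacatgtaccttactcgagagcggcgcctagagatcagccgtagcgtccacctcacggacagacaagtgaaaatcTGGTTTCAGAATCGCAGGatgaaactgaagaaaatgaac
Across the 28 pairs among 8 HoxA genes expressed here (Hoxa2 to Hoxa7, Hoxa9 and Hoxa10), 101 to 160 of the 180 homeobox bases and 34 to 56 of the 60 encoded residues were identical. Hoxa6 and Hoxa7 were the closest pair, with 160 identical bases. Hoxa2 and Hoxa10, near opposite ends of the active stretch, shared 108 bases and 36 residues. Longer runs were rarely shared with genes lying elsewhere. Of all 50-base words in the transcripts of a Hox gene, at most 1.44% recurred in transcripts of genes outside its span. The highest share was that of Hoxc9. Genes overlapping the span of the Hox gene were left out, so Hoxa3, whose span covers Hoxa4, Hoxa5 and Hoxa6, was not compared with them.

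The boundary between expressed and silent genes of the cluster falls between Hoxa10 and Hoxa11. The RefSeq promoter windows of GRCm38.p6 on both sides of it, from 250 bases before to 50 after the annotated start on the minus strand, are shown together with that of Hoxa13 at the posterior end of the cluster. Capitals mark CpG dinucleotides.
Hoxa10 (chr6:52240805-52241104): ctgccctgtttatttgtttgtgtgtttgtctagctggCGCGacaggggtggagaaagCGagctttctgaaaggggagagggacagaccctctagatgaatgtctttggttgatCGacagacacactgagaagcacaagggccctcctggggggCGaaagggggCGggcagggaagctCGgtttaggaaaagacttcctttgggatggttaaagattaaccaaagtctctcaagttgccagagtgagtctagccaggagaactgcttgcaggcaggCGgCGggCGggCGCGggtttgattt
Hoxa11 (chr6:52245761-52246060): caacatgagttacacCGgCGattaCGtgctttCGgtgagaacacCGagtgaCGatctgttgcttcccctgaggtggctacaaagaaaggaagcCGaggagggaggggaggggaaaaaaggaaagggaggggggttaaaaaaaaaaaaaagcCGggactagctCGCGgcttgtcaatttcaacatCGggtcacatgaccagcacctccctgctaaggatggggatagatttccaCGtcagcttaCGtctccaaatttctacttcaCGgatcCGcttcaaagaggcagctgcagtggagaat
Hoxa13 (chr6:52260831-52261130): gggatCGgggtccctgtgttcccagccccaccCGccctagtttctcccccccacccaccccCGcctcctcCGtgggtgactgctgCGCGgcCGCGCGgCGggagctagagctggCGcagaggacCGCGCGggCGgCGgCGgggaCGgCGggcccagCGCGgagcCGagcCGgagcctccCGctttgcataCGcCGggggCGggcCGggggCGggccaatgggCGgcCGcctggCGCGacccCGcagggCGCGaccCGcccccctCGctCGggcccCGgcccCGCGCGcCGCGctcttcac
The Hoxa10 window shown held 12 CpG dinucleotides, a second RefSeq window of Hoxa10 at a start further into the gene held 21, the Hoxa11 window 15 and the Hoxa13 window 45, against a median of 7 over 32851 RefSeq windows. A RefSeq window was at hand for 22 of the 39 Hox genes, 24 windows in all. In the 8 windows of tested HoxA genes the CpG count was 4 to 29 with a median of 16, and in the 16 windows of the other Hox genes it was 4 to 45 with a median of 14.5. The CpG counts of the 2 sets therefore overlapped in the windows at hand. Both Hoxa10 windows are among the 8, Hoxa4 had no window, and most of the 16 others belong to HoxD, so the sets cover the clusters unevenly. The glucocorticoid receptor palindrome (AGAACA, any 3 bases, TGTTCT) and the retinoic acid receptor repeat (AGGTCA, any 5 bases, AGGTCA), each searched on both strands, were found in 0 of the 24 Hox windows and in 0.00913% of all windows each. The CTCF core (CC, any 3 bases, AGG, any base, GGC) was found on either strand in the window of 1 Hox gene, Hoxa11, and in 3.43% of all windows. These matches describe letters in the windows only.

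Library totals were 21213328 to 46530017 counts, and 3 counts, taken as the lowest level that could be read, equalled 0.0639 to 0.139 CPM in a library, CPM being counts per 1000000 counts after scaling. The tested set comprised 15441 genes. Mesenchymal markers matched the label of the line: all 14 passed the filter on low counts, their summed level was 28139 to 38434 CPM in OB and 38001 to 50186 CPM in control, and Col1a1, the main collagen of bone and fibrous tissue, averaged 6884 CPM in OB and 11796 CPM in control. Epithelial markers summed to 0.371 to 1.38 CPM in OB and 1.39 to 3.65 CPM in control, with Epcam and Cldn4 at 0. Macrophage markers summed to 3.29 to 5.10 CPM in OB and 2.86 to 4.41 CPM in control, with Adgre1, Tyrobp and C1qa at 0 and with 4 of 9 tested. Endothelial markers summed to 3.75 to 9.56 CPM in OB and 3.61 to 11.4 CPM in control, with Tie1 at 0, and skeletal muscle markers to 0.651 to 1.43 CPM in OB and 1.23 to 2.62 CPM in control, with Myod1 at 0. Other genes differed between the groups: 7 of 9 glucocorticoid targets rose and 1 fell, and 12 of 12 cell cycle genes fell by edgeR's test, where 4.32% of all tested genes rose and 3.72% fell. Of 12 osteoblast markers 8 were tested and 0 passed edgeR's test, and 1 passed, lower in OB, by DESeq2 and by limma-voom alike. By edgeR 2 of them had an unadjusted p under 0.05, a cut for which no share of all genes is given here. Over all tested genes 1129 of 18714 were lower by DESeq2 and 1081 of 15441 by limma-voom.

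C3H10T1/2 cells expressed the HoxA cluster and almost nothing else of the Hox code, with and without induction. HoxA genes, of which Hoxa2 to Hoxa13 lie on chromosome 6 between 52162417 and 52260880 in the mm10 build, received 34299 of the 34430 Hox counts over the 7 libraries, or 99.6% (95% exact binomial interval 99.5% to 99.7%, which covers counting error only). The HoxB cluster (chromosome 11, 96194316 to 96368256) received 42 counts, HoxC (chromosome 15, 102921103 to 103036852) received 89, and HoxD (chromosome 2, 74668310 to 74765142) received 0. Summed per kilobase of exon, the level of HoxA genes was 64.8, 62.4, 65.7 and 75.6 CPM per kb in OB 1 to 4, against 72.3, 61.7 and 58.8 CPM per kb in control 1 to 3. The groups overlapped. HoxA made up 99.7 ± 0.182% of the summed per-length Hox level in OB (SD, n = 4) and 99.5 ± 0.384% in control (SD, n = 3).

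**Figure D1:**
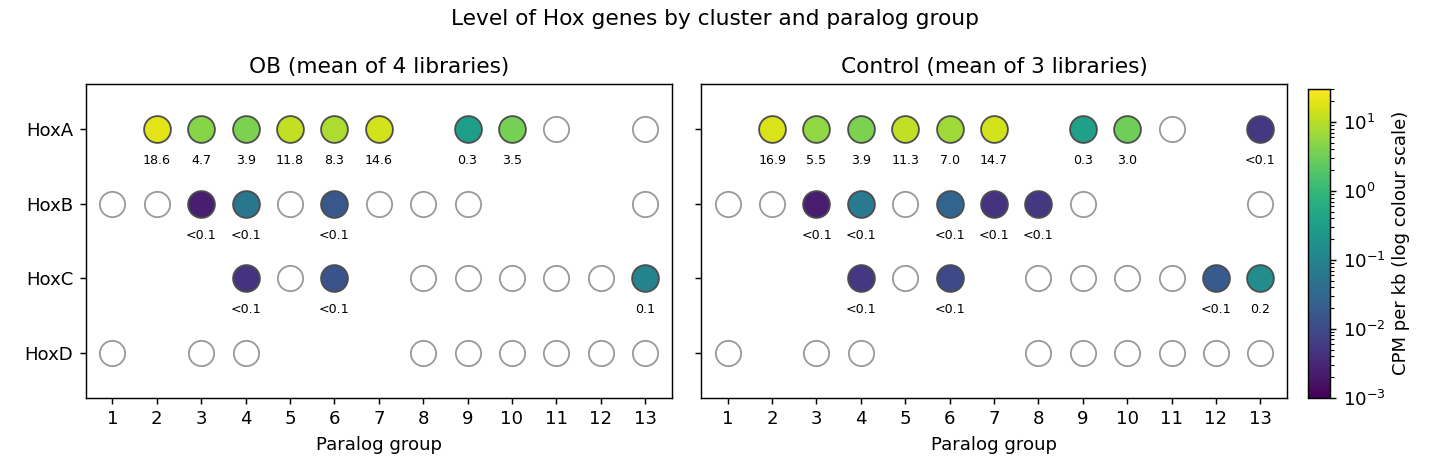
Mean level of 38 Hox genes, in CPM per kb of exon, by cluster (rows) and paralog group (columns), for OB libraries on the left and control libraries on the right. Colour runs on a log scale, open circles are genes listed at 0 in every library of the group, and other places are empty: the HoxA row is filled from group 2 to group 10 in both panels, except for group 8, where the cluster has no gene, and the HoxD row is open throughout.

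Paralog groups 2 to 7, 9 and 10 were each represented by their HoxA member. Group 8, which has no HoxA member, received 0 counts in OB and 2 in control, both from Hoxb8 in control 1. Groups 11 to 13, the posterior groups that pattern the distal limb and the genital region, received 81 counts over all libraries. Of the 9 genes in those groups 6 had 0 counts in every library, including Hoxa11, Hoxd11 and Hoxd13. Hoxa13, which patterns the hand and foot, had 1 count in all, in control 3, and Hoxc12 had 2, both in control 2. Of 21 HoxB, HoxC and HoxD genes in groups 1 to 10, 14 had 0 counts and the others shared 51. Over all 39 genes, 9 passed the filter, 10 had some counts and did not pass, and 20 had 0 counts, which over the 7 libraries together allows up to 0.0136 CPM. In bulk RNA, a low level in all cells and expression in a small share of cells cannot be told apart.

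The highest HoxB gene was Hoxb4, a regulator of blood progenitors, with 5, 1, 4 and 4 counts in OB 1 to 4 and 2, 1 and 11 counts in control 1 to 3. Hoxc13, a regulator of hair and nail keratins, was the highest HoxC gene, with 1, 32, 2 and 3 counts in OB 1 to 4 and 0, 40 and 0 counts in control 1 to 3. Its counts thus came almost wholly from OB 2 and control 2. Every other untested Hox gene had at most 11 counts in any library.

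Within HoxA the drop from expressed to silent was abrupt. Hoxa10, which patterns the lumbar region and the uterus, had 1260 counts over the OB libraries and 1048 over the control libraries, whereas Hoxa11, the next gene, which patterns the forearm and lower leg, had 0 in both. Set against a floor of 3 counts over each group and the part of the Hoxa11 exons that no other gene shares, Hoxa10 was at least 191-fold higher than Hoxa11 per kb in OB and at least 159-fold higher in control. Beyond Hoxa10 up to and including Evx1, a homeobox gene next to the posterior end of the cluster, 16 other annotated genes received 3 counts in all and 14 of them were at 0. Of those 14, 6 lie wholly within exons of Hoxa11os or Hottip and could not have been counted, which leaves 8 at 0 of 10 with exon bases of their own. Those at 0 included Hottip, a long non-coding RNA at the posterior end, and Evx1 itself. Hoxa11os, the antisense transcript of Hoxa11, had 0 counts in OB and 2 in control.

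**Figure D2:**
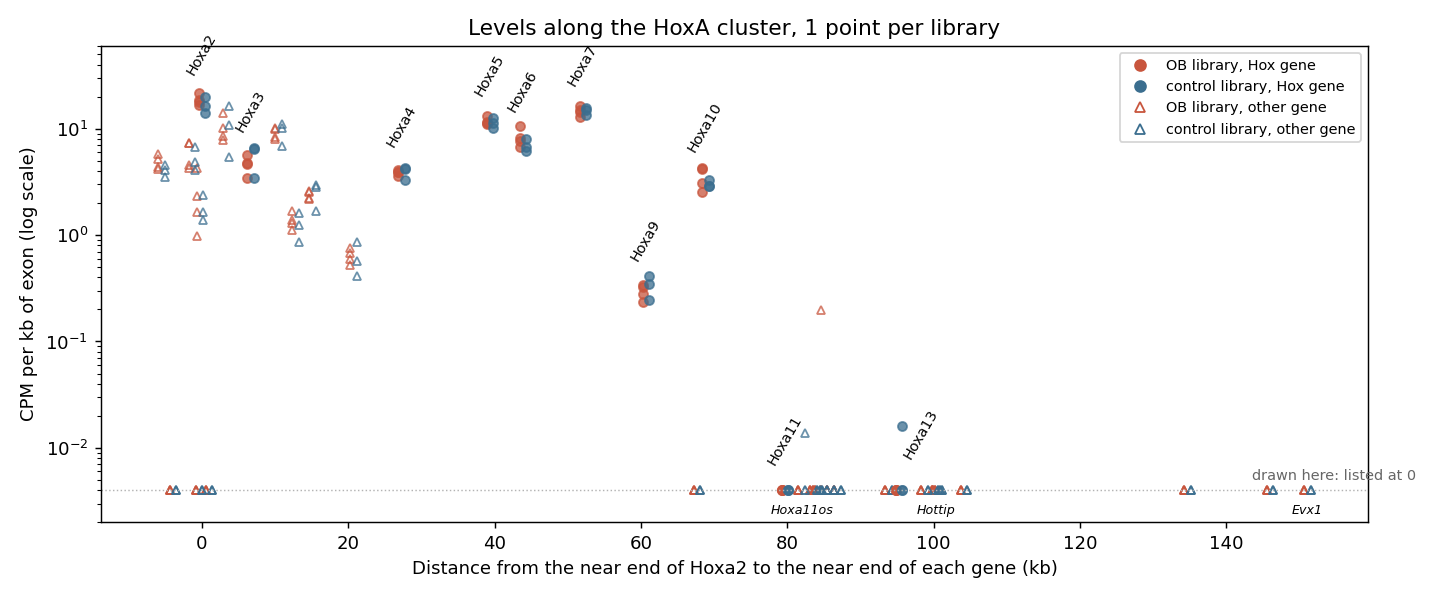
Level of annotated genes along the HoxA cluster in CPM per kb (log scale) by distance from the near end of Hoxa2 in kb, 1 point per library, with OB in red and control in blue, Hox genes as filled circles and other genes as open triangles. Points on the dotted line are listed at 0: from Hoxa11 to Evx1 all but a few single points lie there, while OB and control points of each expressed gene overlie each other.

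Genes annotated on the opposite strand of the anterior stretch, most of them non-coding, had counts alongside their Hox neighbours. The kit did not mark strand, so these counts do not show which strand was transcribed. Several of these genes lie within the span of Hoxa3, where their reads cannot be told apart from those of Hoxa3 RNA. Of 20 other annotated genes inside HoxA, 7 passed the filter, all within the anterior stretch that ends with Hoxa7. Hoxaas2, a transcript that overlaps the end of Hoxa3 on the other strand, stood at 10.1 CPM per kb on average in OB and 10.8 in control, and Hotairm1, which lies near the anterior end of the cluster, at 4.88 in OB and 4.06 in control. By edgeR's test 0 of the 7 were called, where 8.04% of all tested genes were called in either direction. Among so few genes a count of 0 lies near that share. Their log2 fold changes were -0.09 to 0.26, with unadjusted p of at least 0.245 and adjusted p of at least 0.472 by edgeR. DESeq2 and limma-voom each called 0 of the 7. Over all tested genes DESeq2 called 1292 of 18714 higher and 1129 lower, and limma-voom 1247 of 15441 higher and 1081 lower. The other genes inside the remaining clusters gave few or no counts. Of 9 inside HoxB 6 were at 0 and the others shared 9 counts, while 7 of 7 inside HoxC, Hotair among them, and 11 of 11 inside HoxD were at 0; 2 of those in HoxC have no exon base of their own and could not have been counted. Of 8 genes within 100 kb of HoxD 3 were tested and 4 were at 0, including Evx2, the homeobox gene next to its posterior end. Among the tested ones, Mtx2, a mitochondrial outer membrane protein, averaged 9.45 CPM per kb in OB and 10.9 in control, and Lnpk, a protein of the endoplasmic reticulum, 2.82 in OB and 3.66 in control.

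Induction did not detectably shift the HoxA code. Of the 9 Hox genes tested 0 were called in either direction by edgeR's quasi-likelihood test (adjusted p under 0.05), where 4.32% of all tested genes were called higher and 3.72% lower in OB, 8.04% in all. Among 9 genes a count of 0 lies near that share, so the size of any shift is read from the intervals below. At an unadjusted p under 0.05 the count of Hox genes was 0 by edgeR, 0 by DESeq2 and 1 by limma-voom with quality weights. The share of all tested genes at that cut is not given here. OB and control libraries overlapped for 9 of 9, and did not overlap for 25.5% of all tested genes. Of the 9 log2 fold changes 4 were above 0 and 5 below, with a median of -0.011 beside -0.0040 over all tested genes. Their median size without sign was 0.14, against 0.27 over all tested genes. All 9 of the 95% intervals lay within a 2-fold change either way, the widest bounds being 0.568-fold and 1.67-fold, and shifts smaller than these bounds were not resolved. Within the libraries whose descriptions carry no C prefix (OB 3 and OB 4 against control 3), 1 of the Hox genes was called, Hoxa2 higher in OB (log2 fold change 0.49, edgeR adjusted p = 0.0220), where 18.9% of all tested genes were called higher. Within the C1 and C2 libraries Hoxa2 was at -0.09 and 0 Hox genes were called, where 1030 of 16440 tested genes were higher and 560 lower.

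**Figure D3:**
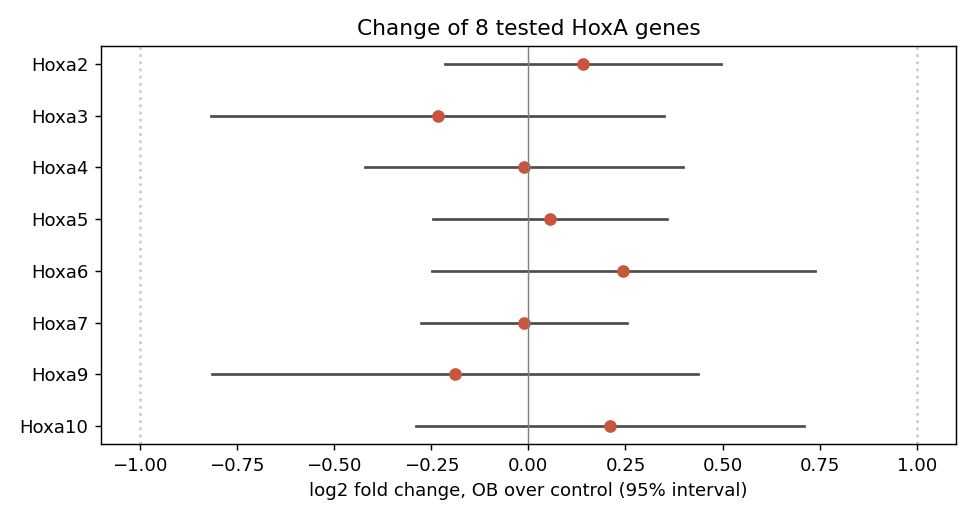
Log2 fold change of OB over control for 8 tested HoxA genes, with 95% intervals from edgeR, ordered along the cluster from Hoxa2 at the top. Every interval crosses 0 and stays inside the dotted lines at -1 and 1.

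Among the anterior genes, Hoxa2, the selector gene of the second pharyngeal arch, was the highest Hox gene per length. It stood at 17.7, 16.6, 18.4 and 21.8 CPM per kb in OB 1 to 4, against 20.1, 16.4 and 14.2 in control 1 to 3. The groups overlapped, with control 1 above 3 of the OB libraries, and the log2 fold change was 0.14 (SE 0.15, edgeR adjusted p = 0.615). Hoxa3, required for the thymus and parathyroid, stood at 4.80, 5.71, 3.43 and 4.67 CPM per kb in OB, against 6.56, 6.39 and 3.46 in control. Control 1 and control 2 were above every OB library, but control 3 lay beside the lowest, OB 3. The log2 fold change of Hoxa3 was -0.23 (SE 0.25, edgeR adjusted p = 0.609), and it was -0.48 without control 3, with an unadjusted p of 0.034 and an adjusted p of 0.163. Hoxa4, a gene of the cervical region, stood at 4.11, 3.94, 3.61 and 3.95 CPM per kb in OB, against 4.30, 4.22 and 3.26 in control. Its highest and lowest values were both control libraries, with a log2 fold change of -0.01 (SE 0.18, edgeR adjusted p = 0.977).

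Of the 9 genes, Hoxa7 and Hoxa5, in the centre of the cluster, had the smallest SE. Hoxa5, which patterns the cervicothoracic transition and the lung, stood at 11.6, 11.3, 11.1 and 13.1 CPM per kb in OB, against 12.7, 10.1 and 11.2 in control, a log2 fold change of 0.06 (SE 0.13, edgeR adjusted p = 0.827). Hoxa6, a thoracic gene, stood at 8.24, 7.59, 6.79 and 10.7 CPM per kb in OB, against 8.09, 6.74 and 6.22 in control. OB 4 was its highest library and the other OB libraries lay among or near the controls, and its log2 fold change was 0.24 (SE 0.21, edgeR adjusted p = 0.516). Hoxa7, another thoracic gene and the second highest per length, stood at 14.3, 12.9, 16.3 and 14.9 CPM per kb in OB, against 15.7, 13.4 and 15.0 in control. It had the narrowest interval of the 9 genes, 0.825-fold to 1.19-fold, around a log2 fold change of -0.01 (SE 0.12, edgeR adjusted p = 0.963).

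At the posterior edge of the active stretch, Hoxa9, a gene of the thoracic and lumbar region and of blood progenitors, was the lowest of the 9 genes. Its level was 0.277, 0.236, 0.324 and 0.341 CPM per kb in OB, against 0.244, 0.413 and 0.349 in control, from 38 to 56 counts in OB libraries and 49 to 81 in control libraries. The groups overlapped, with a log2 fold change of -0.19 (SE 0.27, edgeR adjusted p = 0.711). Hoxa10 was 11.9-fold higher than Hoxa9 per length in OB and 9.03-fold higher in control by group means, although it lies nearer the silent end. Without division by length, Hoxa10 averaged 11.5 CPM in OB and 9.90 in control, and Hoxa9 1.64 in OB and 1.87 in control. Hoxa10 stood at 2.52, 3.06, 4.14 and 4.29 CPM per kb in OB, against 2.90, 2.87 and 3.31 in control. OB 3 and OB 4 were above every control library and OB 1 was below all of them, and the log2 fold change was 0.21 (SE 0.22, edgeR adjusted p = 0.588).

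The order of these 8 genes per length was the same by group means in OB and control: Hoxa2, Hoxa7, Hoxa5, Hoxa6, Hoxa3, Hoxa4, Hoxa10 and Hoxa9. Level did not follow place in the cluster. In OB, neighbours in that order whose ranges over libraries overlapped were Hoxa7 and Hoxa5, Hoxa3 and Hoxa4, and Hoxa4 and Hoxa10. In control they were Hoxa2 and Hoxa7, Hoxa6 and Hoxa3, Hoxa3 and Hoxa4, and Hoxa4 and Hoxa10. Hoxa7 was ahead of Hoxa2 in 1 library, control 3. Over the 9 tested genes, Spearman's rho between an OB and a control library was 0.933 to 1.00 over 12 pairs, against 0.933 to 1.00 within OB and 0.967 to 1.00 within control. These values describe how alike the rankings are, over genes that share a library and are not independent.

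As shares of the summed per-length level of the 8 genes, Hoxa2 held 27.0% to 29.6% in OB libraries and 24.9% to 28.4% in control libraries. Hoxa7 held 20.2% to 25.4% in OB and 22.1% to 26.4% in control, and Hoxa5 17.4% to 18.4% in OB and 16.7% to 19.6% in control. These 3 genes thus gave most of the summed level in every library. Hoxa9 stayed below 1% throughout, at 0.385% to 0.505% in OB and 0.346% to 0.684% in control. Set among all tested genes by level per length, Hoxa2 stood at percentile 81.5 in OB and 79.1 in control, Hoxa10 at 42.5 in OB and 40.1 in control, and Hoxa9 at 8.65 in OB and 11.3 in control.

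**Figure D4:**
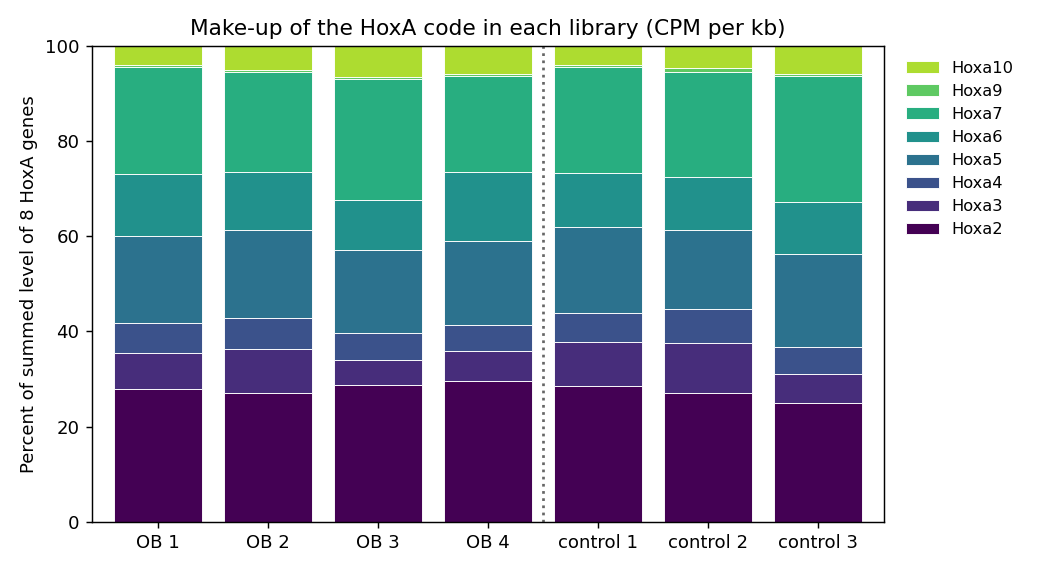
Share of each of 8 HoxA genes in their summed level per length, in percent, 1 bar per library, with OB 1 to 4 left of the dotted line and control 1 to 3 right of it. Hoxa2 at 24.9% to 29.6% and Hoxa7 at 20.2% to 26.4% are the widest bands in all 7 bars, and the sizes of the bands overlap between the groups.

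The exons of some members overlap other annotated genes, where fragments were not counted for either, so that levels per length are too low there. The shared part was 27.1% of the exon length of Hoxa3, 20.4% of Hoxa7, 16.0% of Hoxa4, 15.0% of Hoxa2 and 1.52% of Hoxa9, and 0 for Hoxa5, Hoxa6 and Hoxa10. The kit did not mark strand, and reads of Hoxa3 or Hoxa7 and of their antisense partners cannot be told apart outside the annotated overlaps. Per unshared length, the order of means was the same in OB, and in control Hoxa3 moved ahead of Hoxa6. The exons of Hoxd4 lie wholly within those of another gene, so its 0 could not have been otherwise. The other 8 HoxD genes had exon bases of their own.

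Among the TALE cofactors of Hox proteins, all 11 listed genes were tested, 0 rose and 1 fell in OB by edgeR's test, where 4.32% of all tested genes rose and 3.72% fell, with a median log2 fold change of -0.20. Meis2, a partner of Hox proteins on DNA, averaged 204 ± 25.2 CPM in OB and 237 ± 37.8 CPM in control (SD, n = 4 and 3; edgeR adjusted p = 0.405). The gene that fell was Tgif1, a TALE repressor that also binds Smad proteins, at 38.6, 38.6, 39.2 and 44.3 CPM in OB 1 to 4, against 56.6, 50.8 and 67.0 CPM in control 1 to 3. Its groups did not overlap, and its log2 fold change was -0.53 (SE 0.12, edgeR adjusted p = 0.0362).

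Polycomb genes and H3K27 demethylases were all expressed: 32 of 32 were tested, 0 rose and 2 fell, beside 4.32% and 3.72% of all tested genes, with a median of -0.09. Cbx2, a chromodomain subunit of Polycomb repressive complex 1, averaged 17.8 ± 2.32 CPM in OB and 29.9 ± 2.89 CPM in control, a log2 fold change of -0.75 (SE 0.14, edgeR adjusted p = 0.0224). Phf19, an accessory subunit of Polycomb repressive complex 2, stood at 6.51, 4.56, 5.05 and 2.90 CPM in OB, against 9.26, 25.3 and 16.7 CPM in control, a log2 fold change of -1.84 (SE 0.37, edgeR adjusted p = 0.0273). With the replicate number as a block the adjusted p of Phf19 was 0.0707. That block called Ezh1, a catalytic subunit of the same complex (named here after its values were seen), higher in OB at an edgeR adjusted p of 0.00993, against 0.0548 without the block. In the fit with the block 5.38% of all tested genes were called higher. Ezh1 averaged 211 ± 58.6 CPM in OB and 82.1 ± 35.5 CPM in control.

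Of 18 Trithorax and chromatin looping genes, all tested, 0 rose and 3 fell, beside 4.32% and 3.72% of all tested genes, with a median of -0.19. Ash2l, a core subunit of the histone H3K4 methyltransferase complexes, averaged 72.6 ± 2.09 CPM in OB and 97.7 ± 4.15 CPM in control, a log2 fold change of -0.43 (SE 0.08, edgeR adjusted p = 0.0244). Rad21, a cohesin subunit, averaged 200.4 ± 16.0 CPM in OB and 377 ± 101 CPM in control, a log2 fold change of -0.91 (SE 0.19, edgeR adjusted p = 0.0274). Ctcf, the insulator protein that bounds chromatin domains inside Hox clusters, averaged 77.0 ± 4.43 CPM in OB and 109 ± 16.1 CPM in control, a log2 fold change of -0.49 (SE 0.12, edgeR adjusted p = 0.0461). With the replicate block the adjusted p was 0.0581 for Ash2l and 0.0598 for Ctcf. Genes of the cell cycle list moved in the same direction as these regulators: their summed level was 431 to 643 CPM in OB and 1000.4 to 2814 CPM in control, 12 of 12 fell, where 3.72% of all tested genes did, and their median log2 fold change was -2.07. With 1 library left out the count was 4 without OB 1 and without control 2, 5 without OB 2, 12 without control 1 and 9 in the other fits, and it was 11 with the replicate block. Of all tested genes, 0.662% (without OB 1) to 4.43% (without control 1) were called lower in those fits, and 3.38% with the block. The part of the cell cycle difference in the falls of Polycomb, Trithorax and cohesin genes was not tested.

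Of 16 measured genes that act upstream of Hox genes in embryos, 5 were tested. By edgeR's test 0 rose and 0 fell, beside 4.32% and 3.72% of all tested genes. An unadjusted p under 0.05 was found for 2 of the 5, a cut for which no share of all genes is given here. DESeq2 and limma-voom each called 1 lower, where 1129 of 18714 genes were lower by DESeq2 and 1081 of 15441 by limma-voom. With the replicate block edgeR called 1 lower, where 3.38% of all tested genes were called lower. This was Cyp26b1, which breaks down retinoic acid (named after its values were seen). Its edgeR adjusted p was 0.0227 with the block, against 0.307 without the block and 0.302 with DESeq2. Cyp26b1 averaged 20.2 ± 7.81 CPM in OB and 29.1 ± 6.07 CPM in control. The retinoic acid receptors were the highest: Rarg averaged 256 ± 16.4 CPM in OB and 314 ± 33.5 CPM in control (edgeR adjusted p = 0.148), and Rara 81.7 ± 23.1 CPM in OB and 84.8 ± 22.8 CPM in control (edgeR adjusted p = 0.921). Cdx2, Cdx4, Wnt3a, Aldh1a2 and Mstn were at 0 in every library. The dispersed relatives of the Hox genes (13 genes, among them Gbx2, Mnx1 and Pdx1) did not pass the filter in any case.

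Positional transcription factors outside the Hox clusters were in part on: 38 of 62 were tested and 14 were at 0, among them Tbx5 of the forelimb and Hand1 and Hand2 of the heart. None rose and 3 fell, beside 4.32% and 3.72% of all tested genes, with a median of -0.11. Six2, a factor of head mesenchyme and kidney progenitors, averaged 34.9 ± 3.90 CPM in OB and 54.8 ± 2.92 CPM in control, a log2 fold change of -0.65 (SE 0.11, edgeR adjusted p = 0.0183). Foxd1, a marker of kidney stroma, averaged 31.1 ± 4.65 CPM in OB and 67.5 ± 21.0 CPM in control, a log2 fold change of -1.12 (SE 0.23, edgeR adjusted p = 0.0270). Foxc2, a factor of paraxial mesoderm, averaged 33.7 ± 3.35 CPM in OB and 48.3 ± 3.46 CPM in control, a log2 fold change of -0.52 (SE 0.11, edgeR adjusted p = 0.0335). With the replicate block the adjusted p was 0.0517 for Six2 and 0.0580 for Foxc2. Prrx1, a limb and head mesenchyme factor named here because it was the highest of the list, averaged 1406 ± 109.9 CPM in OB and 1655 ± 103 CPM in control (edgeR adjusted p = 0.234).

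Of 22 measured genes in the neighbourhood of the 4 clusters 17 were tested, 1 rose and 0 fell, beside 4.32% and 3.72% of all tested genes, with a median of -0.05. The gene that rose was Hibadh, an enzyme of valine breakdown beyond the posterior end of HoxA, at 47.9, 46.5, 49.1 and 53.5 CPM in OB 1 to 4, against 37.9, 33.7 and 39.1 CPM in control 1 to 3. Its log2 fold change was 0.42 (SE 0.10, edgeR adjusted p = 0.0465), and 0.0903 was the adjusted p with the replicate block. The highest of the list were Hnrnpa1 and Hnrnpa3, which bind pre-mRNA, at 508 ± 53.6 and 365 ± 25.4 CPM in OB, against 834 ± 227 and 572 ± 177 CPM in control (edgeR adjusted p = 0.0533 and 0.0785). With the replicate block Hnrnpa1 was called lower, at an edgeR adjusted p of 0.0389, where 3.38% of all tested genes were called lower. None of the 10 calls in the cofactor, Polycomb, Trithorax, positional and flank lists held in every fit that left out 1 library: each was lost without OB 1, without OB 4 and without control 2. Over all alternative fits in which a call was lost, its largest edgeR adjusted p was between 0.0574 for Six2 and 0.171 for Hibadh.

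**Figure D5:**
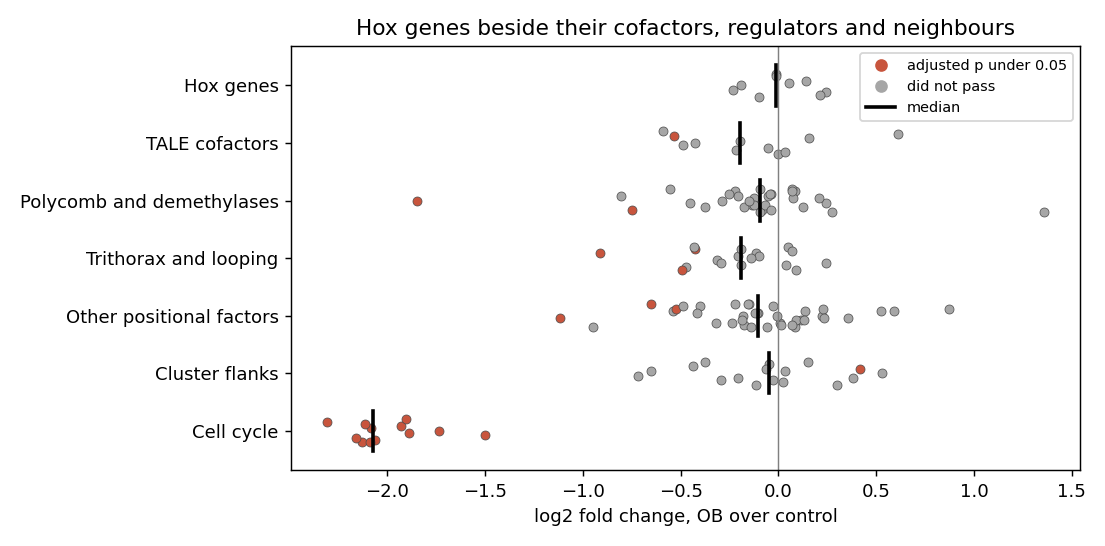
Log2 fold change of OB over control for every tested gene of the Hox genes and of 6 other lists, with red points for edgeR adjusted p under 0.05, grey points for genes that did not pass and black bars for medians. Hox genes lie between -0.23 and 0.24, while the cell cycle genes are all red with a median of -2.07.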

How the data were processed

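Messenger RNA was sequenced in 7 libraries. Per the submitters' processing notes, reads were handled with Trimmomatic, HISAT2 and featureCounts on mm10. The deposited counts, per the file headers, are numbers of paired fragments per gene by featureCounts 1.6.4 on the Ensembl 94 annotation, with no strand setting, leaving out fragments with more than 1 gene or more than 1 alignment. The authors did not normalize them. Columns carry numbers only and were assigned to samples in the sequence in which the command in the header lists its inputs, and this could not be checked independently. The dexamethasone dose is left out because the labels write it ambiguously.

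Symbols were found for 54409 of 54532 features, and 24769 features were at 0 in every library. Counts were filtered with filterByExpr, scaled by TMM (factors 0.981 to 1.02) and tested with edgeR 4.0.16 in R 4.3.3 (quasi-likelihood, Benjamini-Hochberg adjustment over 15441 genes, threshold 0.05). The SE is the size of the log2 fold change divided by the square root of F. Levels between genes are CPM per kb of the exon length given in the table. Pooled shares have 95% exact intervals, which cover counting error only. The fit was tested on simulated data. Alternatives were DESeq2 1.42.0, limma 3.58.1 (voom with quality weights), other scalings, no filter, blocks, and leaving out libraries. Figures were drawn with matplotlib 3.10.9.

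The design text calls the replicates biological; nothing else shows that cultures were separate, and p-values measure the spread between libraries. Chi-square per degree of freedom between libraries of a group was 13.6 to 148, far above sampling noise. Deviations of same-numbered libraries correlated at 0.17, 0.52 and 0.40 for numbers 1, 2 and 3, each above 0.1, so the numbers, taken from the sample titles, were taken to pair them. OB 1 correlated more with control 2 (0.21), and OB 4, which has no partner, at 0.27 with control 3. Values given are from the fit without the replicate block unless the block is named, so their SE and p ignore that pairing. With the block 0 of the 9 Hox genes were called, where 5.38% of all tested genes were called higher and 3.38% lower. The SE of Hoxa3 was 0.14 with the block and 0.25 without it, and that of Hoxa9 was 0.31 and 0.27. The sample descriptions of number 1 begin with C1, those of number 2 with C2, and the others have no such prefix; its meaning is not given. Named genes were all Hox genes, with values in every library for the highest of each cluster and paralog group, and in other lists up to 4 called members by p, or the 2 of highest level where fewer than 2 were called. A tested HoxA gene and a TALE gene are counted but not reported by name here. The Hox genes and all lists were chosen with earlier results of these data known.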

Additional observations from a re-analysis of the deposited data

Results flagged for a closer look

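Values of 21 genes were checked for 1 OB library standing apart from the other 3, where the gap to the nearest library exceeded Dixon's critical share of the range; chance gives about 1 in 20 such cases. Hoxc13 stood at 0.752 CPM in OB 2, and the next OB library was at 0.124 CPM, a gap of 0.883 of the range. Tgif1 stood at 44.3 CPM in OB 4, and the next OB library was at 39.2 CPM, a gap of 0.906 of the range. Without OB 4 the log2 fold change of Tgif1 was -0.58 (edgeR adjusted p = 0.0651).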

How the results depend on the processing

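With edgeR, 667 genes of the whole table were higher and 574 lower in OB. The counts were 1292 and 1129 with DESeq2, 1247 and 1081 with limma-voom, 1433 and 1256 with the label set (C1, C2 or no prefix) as a block, 1030 and 560 in the C1 and C2 libraries alone, and 3052 and 3413 in the libraries with no prefix. They were 831 and 522 with the replicate number as a block. Leaving out 1 library gave 190 to 575 higher and 104 to 703 lower, the fewest without control 2 (190 and 107) and without OB 1 (225 and 104). The other fits that moved a count past 1.5 times were those without OB 2 (366 and 180), OB 3 (387 and 227) and OB 4 (341 and 202). Hox genes called stayed at 0 in every fit except that of the libraries with no prefix (OB 3 and OB 4 against control 3, the lone control being assumed to vary like the OB libraries), which called 1 higher: Hoxa2, at 0.49 with an adjusted p of 0.0220, where 18.9% of all tested genes were called higher. Over all fits the adjusted p of Hoxa2 was otherwise above the threshold. Signs of small Hox changes turned in some fits and the cause was not tested: Hoxa2 was -0.088 in the C1 and C2 libraries; Hoxa3 was 0.22 in the libraries with no prefix; Hoxa4 was 0.031 with the label set block, 0.20 in the libraries with no prefix and -0.13 to 0.048 with 1 library left out. Hoxa5 was -0.033 to 0.14 and Hoxa7 -0.087 to 0.046 with 1 library left out. Hoxa7 was also 0.0018 with upper-quartile scaling, 0.042 with limma-voom and 0.037 in the libraries with no prefix, and Hoxa10 was -0.040 in the C1 and C2 libraries. With limma-voom the log2 fold change of Hoxa3 was -0.48 (adjusted p = 0.0980). Counting only Hox genes that pass the filter makes the HoxA share 100% in both groups by construction. For the 10 called genes of other lists the alternatives were chosen after seeing the data: all kept their direction, and 68 of 130 values missed the threshold. DESeq2 and limma-voom called as many or more members of those lists: TALE 0 higher and 2 lower by both, Polycomb 1 and 2 by both, Trithorax 0 and 3 by both, positional factors 2 and 4 by DESeq2 and 1 and 5 by limma-voom, and cluster flanks 1 and 2 by both. Both methods also called more of all tested genes. DESeq2 called 1292 of 18714 higher and 1129 lower, and limma-voom 1247 of 15441 higher and 1081 lower, against 667 and 574 of 15441 by edgeR. The replicate block ended the calls of Phf19, Ash2l, Ctcf, Six2, Foxc2 and Hibadh and of no other named gene. Depth limits the silent Hox genes, where 3 counts are 0.0639 to 0.139 CPM in a library.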

Other observations

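Over the whole table, Hoxc13 was the sole feature of 29763 with at least 1 count that had at least 20 counts in both libraries whose descriptions begin with C2 (32 in OB 2 and 40 in control 2) and at most 3 in each of the others. These limits were chosen after its counts were seen. The neighbouring Hoxc12 had 2 counts in control 2 and 0 in every other library.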
